A study of Mus musculus with 40 samples.

Results

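Brown adipocytes burn fatty acids that lipases release from stored fat or from lipoproteins in the blood. Of the 10 genes described here, 5 cut stored fat inside the cell or regulate its cutting (Pnpla2, Abhd5, G0s2, Lipe and Mgll). Lipa is a lysosomal lipase, and 4 are lipoprotein lipase and its partners and regulators (Lpl, Gpihbp1, Lmf1 and Angptl4). They were chosen by name for their role in lipolysis, from 21951 annotated protein-coding genes. Every peak over each gene body and 20 kb each side was taken from 32 lists, 1294 peaks in all, and each peak was ranked within its own list. Of these peaks 672 were of H3K27ac, 293 of H3K4me3, 327 of H3K4me1 and 2 of H3K27me3.

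Stored triglyceride is cut stepwise. Adipose triglyceride lipase (Pnpla2) removes the first fatty acid, hormone-sensitive lipase (Lipe) the next and monoglyceride lipase (Mgll) the last. Abhd5 activates Pnpla2, and G0s2 inhibits it. Lipoprotein lipase (Lpl) acts outside the cell, on the capillary wall, where Gpihbp1 of endothelial cells holds it. Lmf1 is needed for its folding and Angptl4 inhibits it. Lipa works on lipid delivered to lysosomes. Cold raises both the release of stored fat and its uptake from blood in brown fat, while H3K4me3 marks active start sites, H3K27ac active start sites and enhancers, H3K4me1 enhancers and H3K27me3 silenced genes.

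Histone marks were measured by ChIP-seq in brown adipose tissue (iBAT in the labels) of wild type C57BL/6N mice aged 20 weeks, a heat-producing tissue that was dissociated whole and holds several cell types. Mice 1 and 2 were warm on a normal chow diet (NCD), mice 4 and 5 were cold on NCD, mice 7 and 8 were warm on a high-fat diet (HFD), and mice 10 and 11 were cold on HFD. Cold was 4 °C for 24 h, and HFD was given for 12 weeks from 8 weeks of age. Each of the 8 mice had 1 list for each of the 4 marks, so that temperature and diet were each compared over 4 against 4 mice, and each condition had 2. The temperature of the warm mice is not given in the labels.

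The lists differed in length, with 13517 to 24104 H3K4me3 peaks, 3224 to 40604 H3K27ac peaks, 12 to 27568 H3K4me1 peaks and 20 to 6428 H3K27me3 peaks. Mouse 7 had the shortest list of H3K4me3, H3K27ac and H3K4me1, and mice 7 and 10 had only 12 and 18 H3K4me1 peaks. All 6 brown adipocyte markers had a start-site H3K4me3 peak in 8 mice, and 5 of 6 had one of H3K27ac, Ucp1 and Cidea among them. None of the 5 liver markers had a start-site peak of any mark. Endothelial markers had start-site H3K4me3 peaks in 8 mice for 3 of 5, muscle markers for 1 of 5 (Mylpf) and macrophage markers for 1 of 5 (Cd14). In whole tissue, fewer cells of a type and less mark per cell cannot be told apart.

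On GRCm38, with GENCODE M21 annotation, Pnpla2 (ENSMUSG00000025509.15) lies at chr7:141455198-141460743 on the plus strand, with 7 other protein-coding genes in its window. Abhd5 (ENSMUSG00000032540.16) lies at chr9:122351608-122381524 (plus), G0s2 (ENSMUSG00000009633.3) at chr1:193272161-193273217 (minus), Lipe (ENSMUSG00000003123.15) at chr7:25379527-25398710 (minus) and Mgll (ENSMUSG00000033174.17) at chr6:88724412-88828360 (plus). Lipa (ENSMUSG00000024781.16) lies at chr19:34492318-34527474 (minus). Lpl (ENSMUSG00000015568.16) lies at chr8:68880491-68907448 (plus), Gpihbp1 (ENSMUSG00000022579.10) at chr15:75596628-75599481 (plus), Lmf1 (ENSMUSG00000002279.19) at chr17:25579085-25662826 (plus) and Angptl4 (ENSMUSG00000002289.16) at chr17:33773750-33781830 (minus). The Lpl and Abhd5 windows hold no other protein-coding gene, and a distal peak in the other windows can belong to a neighbour.

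The start sites of Lipe are shown first, because this gene had the highest median H3K27ac percentile of the 10 and marks at more than 1 annotated start. RefSeq (GRCm38.p6) promoters run from 250 bases before to 50 after a start and were found for 7 of the 10 genes. Lpl, Gpihbp1 and Angptl4 were not matched. The upstream Lipe promoter (chr7:25395938-25396237, minus strand) held 19 CpG dinucleotides and the downstream one (chr7:25390063-25390362, minus strand) 2, against a median of 7 over all 32851 promoters in the table. The promoters of G0s2 (chr1:193273139-193273438, minus strand, 13 CpG) and Pnpla2 (chr7:141454938-141455237, plus strand, 18 CpG) follow. Capitals mark motif matches on either strand, which here are GGGCGG and, in the upstream Lipe promoter, CACGTG.
Lipe upstream promoter: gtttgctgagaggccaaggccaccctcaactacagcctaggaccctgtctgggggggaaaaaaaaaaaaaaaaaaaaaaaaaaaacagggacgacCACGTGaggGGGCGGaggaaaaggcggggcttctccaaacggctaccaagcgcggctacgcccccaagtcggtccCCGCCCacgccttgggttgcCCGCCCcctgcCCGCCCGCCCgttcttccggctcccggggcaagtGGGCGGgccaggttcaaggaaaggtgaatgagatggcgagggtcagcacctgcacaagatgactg
Lipe downstream promoter: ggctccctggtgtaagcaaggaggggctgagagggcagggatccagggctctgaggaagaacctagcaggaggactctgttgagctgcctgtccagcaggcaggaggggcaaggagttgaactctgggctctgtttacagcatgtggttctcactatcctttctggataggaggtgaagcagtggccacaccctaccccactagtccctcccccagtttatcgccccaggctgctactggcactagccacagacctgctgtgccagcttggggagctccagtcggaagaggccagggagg
G0s2 promoter: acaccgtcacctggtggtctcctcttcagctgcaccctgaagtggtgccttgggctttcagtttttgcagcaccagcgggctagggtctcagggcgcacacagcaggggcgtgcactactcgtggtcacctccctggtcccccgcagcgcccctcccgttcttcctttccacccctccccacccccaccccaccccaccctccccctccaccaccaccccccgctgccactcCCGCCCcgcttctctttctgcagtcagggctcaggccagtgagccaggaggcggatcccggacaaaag
Pnpla2 promoter: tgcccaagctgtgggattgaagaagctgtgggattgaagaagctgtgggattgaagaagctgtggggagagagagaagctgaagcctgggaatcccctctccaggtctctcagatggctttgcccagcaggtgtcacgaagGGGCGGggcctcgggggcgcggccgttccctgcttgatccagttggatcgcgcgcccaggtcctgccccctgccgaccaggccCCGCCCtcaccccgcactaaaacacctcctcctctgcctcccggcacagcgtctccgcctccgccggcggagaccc

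The upstream Lipe promoter held 6 matches to GGGCGG, 2 of them overlapping, and the downstream one held none of the 7 motifs searched. H3K27ac and H3K4me3 peaks overlapped the downstream promoter in 8 mice and the upstream one in 7. Over the 9 promoter entries of the 7 genes, 8 held GGGCGG, as did 35.7% of all promoters. CACGTG was in 2 of 9 and in 7.15% of all, AGGTCA in 1 of 9 and in 16.3%, and TATAAA in 1 of 9 and in 13.6%. TTGCGCAA (0.183% of all promoters), TGACGTCA (1.79%) and the PPAR:RXR direct repeat, a pair of AGGNCA letters in the same direction with 1 base between (0.381%), were in none of the 9. A match describes letters in the window and is not a binding site.

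All 10 genes had a start-site H3K4me3 peak, one that overlapped 1000 bp either side of an annotated start, in 8 of 8 mice. The same was true of 9499 of 21951 protein-coding genes (43.3%). A start-site H3K27ac peak was found in 8 of 8 mice for 8 of the 10 genes, and for 821 of 21951 genes overall (3.74%). The exceptions, Abhd5 and Lmf1, lacked it in mouse 7 only. With every H3K27ac list reduced to its 3224 strongest peaks, the length of the shortest, Pnpla2, G0s2, Lipe, Lpl and Angptl4 still had it in 8 mice. Mgll then had it in 6 mice, Lipa in 7, Gpihbp1 in 4, and Abhd5 and Lmf1 in 1 each. The 3.74% belongs to the full lists, and the share of all genes at this length is not given here. Peaks tied at the last place were kept by genome position, and the Abhd5 peak of mouse 5, tied from rank 3214, was not kept.

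H3K27me3 was at no start site of the 10 genes in any mouse. Of all 21951 protein-coding genes, 6.94% had it in at least 1 mouse. The windows held only 2 H3K27me3 peaks, both near Lmf1 in mouse 5. One lay over exons of Sox8 and 2810468N07Rik, at -8177 bp (upstream) from the nearest Lmf1 start, with a fold enrichment of 5.92, and the other was intergenic. Start-site H3K4me1 was patchy: 6 of the 10 genes had it in at least 1 mouse, against 22.5% of all 21951 genes, and none in 8. It was most frequent for Angptl4 (mice 2, 4, 5, 8 and 11) and Lmf1 (mice 2, 5, 8 and 11), and none of the 10 had it in mice 1, 7 or 10. No annotated protein-coding gene had start-site H3K4me1 in 8 mice. The Angptl4 peak stood at percentiles of 96.4, 96.1, 99.4, 7.56 and 89.6 of the H3K4me1 lists of mice 2, 4, 5, 8 and 11.

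Within their own lists the genes differed widely in acetylation. Percentile here is the share of a mouse's own list at or below the peak by −log10 p, so that the strongest peak of a list has 100. Lipe had the highest median H3K27ac percentile, at 99.8 (98.7 to 99.9 over 8 mice). Angptl4 followed at 99.2 (86.3 to 100.0), G0s2 at 98.9 (95.4 to 99.8), Pnpla2 at 98.4 (86.0 to 99.8) and Lpl at 98.1 (95.8 to 99.9). These 5 had overlapping ranges. Mgll reached 90.6 (40.6 to 99.2), Lipa 89.4 (10.5 to 99.6), Abhd5 84.6 (0.507 to 90.8 in 7 mice), Lmf1 83.2 (6.82 to 91.7 in 7 mice) and Gpihbp1 76.8 (53.4 to 97.9). The highest Lipa value, in mouse 11, came from a peak 13961 bp wide with its summit 11243 bp downstream of the start. The plot of start-site percentiles shows both sets of 5.

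**Figure D1:**
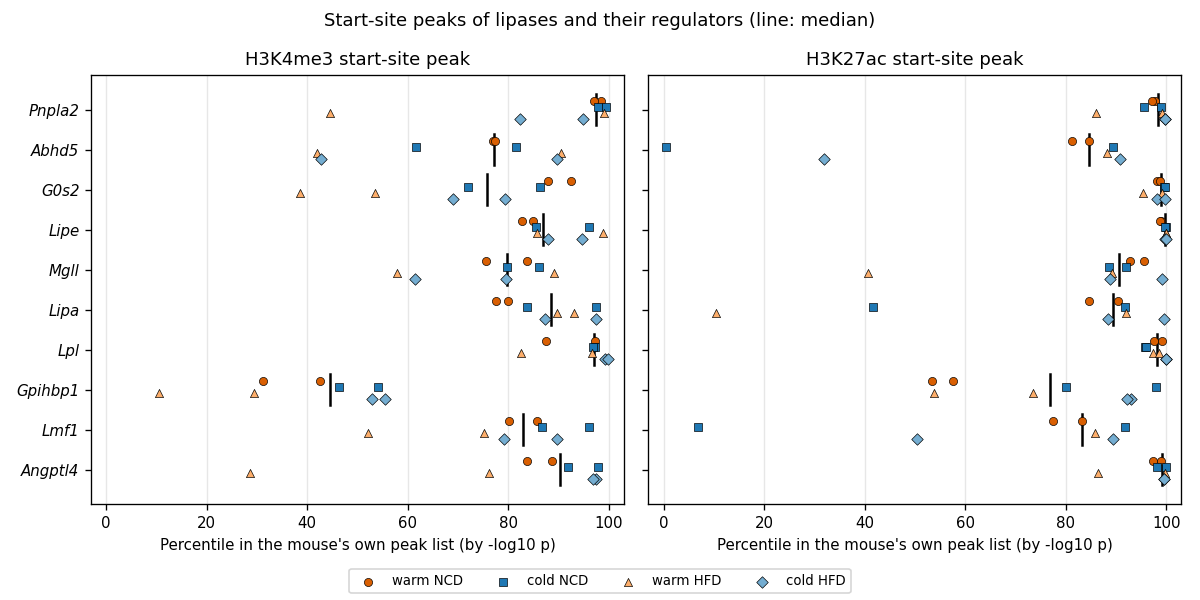
Percentile of the strongest start-site peak of each gene in the own list of each mouse (x axis, percent; by −log10 p) for H3K4me3 and H3K27ac, with 1 point per mouse, shape and colour for the condition and a line at the median. Lipe H3K27ac lies between 98.7 and 99.9 in all 8 mice, while Gpihbp1 H3K4me3 lies between 10.6 and 55.6, the lowest of the 10 genes by median.

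The H3K4me3 order was different. Pnpla2 had the highest median percentile, at 97.5 (44.5 to 99.5), and Lpl was next at 97.0 (82.6 to 99.8). Angptl4 had 90.3 (28.5 to 97.9), Lipa 88.6 (77.6 to 97.5), Lipe 86.9 (82.8 to 98.9), Lmf1 82.9 (52.0 to 96.1), Mgll 79.7 (57.9 to 89.0), Abhd5 77.2 (41.9 to 90.6) and G0s2 75.7 (38.6 to 92.4). Gpihbp1 was lowest at 44.5 (10.6 to 55.6). G0s2 was thus among the 3 highest genes by H3K27ac and the 2 lowest by H3K4me3. The H3K27ac percentile was above the H3K4me3 percentile in 8 of 8 mice for G0s2, Lipe, Angptl4 and Gpihbp1, although lists of different marks hold different peaks and lengths.

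Lipe, hormone-sensitive lipase, carried wide acetylation. Its strongest start-site H3K27ac peak was 8677, 8681, 5264 and 5419 bp wide in warm mice 1, 2, 7 and 8 and 12546, 12984, 7008 and 13051 bp wide in cold mice 4, 5, 10 and 11. The median width of all peaks in those lists was 368 to 656 bp. The widths in 3 cold mice (4, 5 and 11) were the largest, but that of cold mouse 10 lay among the warm ones. Within 250 bp, the annotated starts at 25390106 and 25389224 of chromosome 7 were marked by H3K27ac and H3K4me3 in 8 mice, the one at 25396379 by H3K27ac in 7 and H3K4me3 in 6, and those at 25398709 and 25398710 in none. The upstream edge of the peak lay between positions 25395637 and 25395980 in mice 4, 5 and 11 and between 25391861 and 25392010 in the other 5 mice, where further peaks followed upstream. In mice 4, 5 and 11 the H3K27ac peak also reached a start of 4732471J01Rik, a noncoding gene that overlaps Lipe. The strongest start-site H3K4me3 peak was an upstream one in mice 5 (25392104 to 25396946) and 8 (25392254 to 25396026), which also reached that gene. In the other mice it was a downstream one ending no further than 25391505. The Lipe H3K4me3 percentiles and ranks thus do not come from the same start in all mice.

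G0s2, the Pnpla2 inhibitor, is a short gene (1057 bp) that shares its window with Lamb3 and Hsd11b1. Its H3K27ac fold enrichment over background was 16.6, 23.3, 29.5, 32.6, 9.89, 16.4, 11.9 and 26.5 in mice 1, 2, 4, 5, 7, 8, 10 and 11. Pnpla2 itself had 15.8, 20.1, 7.86, 25.8, 6.94, 12.4, 19.7 and 30.2. The folds were low for both genes in mouse 7. Abhd5, the Pnpla2 activator, was weaker: its H3K27ac fold was 9.39, 11.4, 2.57, 14.3, 10.6, 4.99 and 12.2 in mice 1, 2, 4, 5, 8, 10 and 11. In mouse 4 its strongest start-site peak stood near the bottom of the list (percentile 0.507), with a summit 763 bp downstream of the nearest start.

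Among the genes of vascular lipolysis, Lpl and Angptl4 had higher median H3K27ac percentiles than Gpihbp1 and Lmf1. The Lpl H3K27ac fold was 18.9, 20.0, 8.49, 13.2, 9.14, 9.76, 22.6 and 38.2 in mice 1, 2, 4, 5, 7, 8, 10 and 11, highest in the cold HFD mice. The Angptl4 fold was 18.0, 19.0, 45.1, 23.0, 6.22, 18.0, 15.8 and 18.7, highest in cold NCD mouse 4 and lowest in mouse 7. In mice 4 and 11 this peak also reached the start of 4931413I07Rik. Lmf1 had narrow peaks of 224 to 1034 bp. Gpihbp1, a gene of endothelium, had H3K27ac folds of 5.30 to 19.8. The endothelial marker Pecam1 had start-site H3K27ac in 8 mice and the other 4 of that list in 6 or 7. Their part in the Gpihbp1 values was not tested.

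No start-site peak of the 10 genes was present in all 4 mice of a temperature or diet group and in none of the other. For H3K4me3 the same split was met by 0.0421% of genes with a peak for temperature and 0.239% for diet, for H3K27ac by 0.119% and 0.101%, and for H3K4me1 by 0% and 0.0608%. The smallest two-sided p of Fisher's exact test with 4 against 4 mice is 0.0286, which cannot pass an adjustment over all genes. Mgll peaks of H3K4me3 and H3K27ac also reached the start of the neighbour Gm26588 in 8 mice, and the genes cannot be told apart there.

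Ranks could be compared where a gene had a start-site peak in all 8 mice. Each gene's rank among the shared genes of a library was turned into a normal score, a scale on which 0 is the middle gene, and fitted by limma with temperature and diet as terms. For H3K4me3, none of the 10 genes passed an adjusted p of 0.05 for temperature or diet, and 0% and 0.0632% of 9499 genes did. For H3K27ac, none of the 8 tested passed, nor did any of 821 genes (0% for temperature and 0% for diet). At an unadjusted p under 0.05 there were 760 and 889 genes for H3K4me3 and 47 and 84 for H3K27ac, for temperature and diet.

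Angptl4, the Lpl inhibitor, had the largest temperature estimate of the 10 genes, which did not pass the adjusted threshold. Its H3K4me3 percentile among the shared genes was 71.8, 58.5, 18.0 and 48.8 in warm mice 1, 2, 7 and 8 and 78.4, 94.3, 94.6 and 90.9 in cold mice 4, 5, 10 and 11. Every cold value was above every warm one. The mean normal score was -0.04 in warm and 1.33 in cold mice, a difference of 1.37 ± 0.395 (SE, limma adjusted p = 0.562). Angptl4 was the only 1 of the 10 genes whose H3K4me3 ranks did not overlap between temperatures, which held for 3.61% of the 9499 genes, and none did so between diets, against 5.01%. The rank overlap was counted after the values were seen. When fold enrichment was ranked in place of −log10 p, its temperature groups overlapped. Its start-site H3K27ac differed by 0.432 ± 0.438 (SE, limma adjusted p = 0.850).

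Lpl, the lipase of the capillary wall, had the largest diet estimate for H3K27ac, which did not pass the adjusted threshold. The percentile among shared genes was 88.3, 63.6, 52.3 and 47.0 in NCD mice 1, 2, 4 and 5 and 95.1, 71.0, 99.5 and 98.5 in HFD mice 7, 8, 10 and 11. The groups overlapped, since mouse 1 exceeded mouse 8. The mean normal score was 0.38 on NCD and 1.72 on HFD, a difference of 1.34 ± 0.448 (SE, limma adjusted p = 0.257). For temperature, Lpl H3K4me3 differed by 0.891 ± 0.390 (SE, limma adjusted p = 0.594). The interaction of temperature and diet for Lpl H3K27ac was 2.03 ± 0.809 (SE, limma adjusted p = 0.971), and no gene passed for the interaction in either mark (490 H3K4me3 and 30 H3K27ac genes by limma at an unadjusted p under 0.05).

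The diet estimates for Pnpla2 had opposite signs in H3K27ac and H3K4me3, and neither passed the adjusted threshold with all 8 mice. Its H3K27ac percentile among shared genes was 73.2, 56.3, 50.2 and 79.4 in NCD mice 1, 2, 4 and 5 and 80.3, 79.8, 97.5 and 94.8 in HFD mice 7, 8, 10 and 11. Every HFD value was above every NCD one, by a narrow margin between mouse 8 and mouse 5. The mouse 7 peak (chr7:141455956-141457543) began downstream of the annotated starts, with its summit 845 bp from the nearest. It was the only 1 of the 8 with no base within 250 bp of a start, so the values need not describe the same element. Where tied ranks were counted at the top of the tie rather than averaged, mouse 5 reached 80.0 against 79.8 in mouse 8 and the groups overlapped. The difference was 0.913 ± 0.393 (SE, limma adjusted p = 0.437). Its H3K4me3 difference was -0.995 ± 0.468 (SE, limma adjusted p = 0.526), and without mouse 8 it was -1.57 (limma adjusted p = 0.0249). Its H3K4me3 percentile was 95.8, 91.8, 94.5 and 98.8 in the NCD mice and 30.9, 98.3, 64.1 and 84.7 in HFD mice 7, 8, 10 and 11, so that HFD mouse 8 lay among the NCD values.

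Gpihbp1 stood at the bottom of the shared genes for H3K4me3, at percentiles of 0.479 to 21.1. In its own H3K27ac lists it was at 57.7, 53.4, 53.8 and 73.5 in warm mice 1, 2, 7 and 8 and at 97.9, 80.0, 93.1 and 92.1 in cold mice 4, 5, 10 and 11. Among the shared genes the same peaks were at 4.02, 1.04, 45.6 and 3.65 in warm and 70.8, 7.00, 55.8 and 19.4 in cold mice, which overlap. The difference was 1.09 ± 0.484 (SE, limma adjusted p = 0.786). These Gpihbp1 H3K27ac peaks did not share a position. Their summits lay at 737, -1506, 253, -3646, 135, -693, -3097 and -375 bp from the nearest start in mice 1, 2, 4, 5, 7, 8, 10 and 11 (negative is upstream). The peaks of mice 8 and 10 ended upstream of the start, so the values need not describe the same element. Lipe H3K27ac differed by 0.869 ± 0.406 between diets (SE, limma adjusted p = 0.469).

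All 8 genes fitted for H3K27ac had a positive estimate for cold and for HFD. These estimates come from the same 8 mice and are not independent. The share of the 821 genes that were positive for both is not given here. The median difference of the 8 genes was 0.435 for temperature and 0.733 for diet, against 0.00741 and -0.00158 over all 821 genes. The signs were not steady. With fold enrichment ranked, 7 of the 8 were positive for temperature and 6 for diet, and with log2 fold 6 and 6. Mgll and Lipa (temperature) and Angptl4 (diet) were among the genes whose signs turned. Without mouse 8, and likewise without mouse 11, 6 of the 8 were positive for temperature. For H3K4me3, 7 of 10 were positive for temperature and 5 of 10 for diet. The plot of rank differences shows that most SE bars were wide against the estimates. Ranks did not overlap for 0 of the 8 genes between temperatures for H3K27ac (1.95% of 821 genes) and for 1, Pnpla2, between diets (5.6%).

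**Figure D2:**
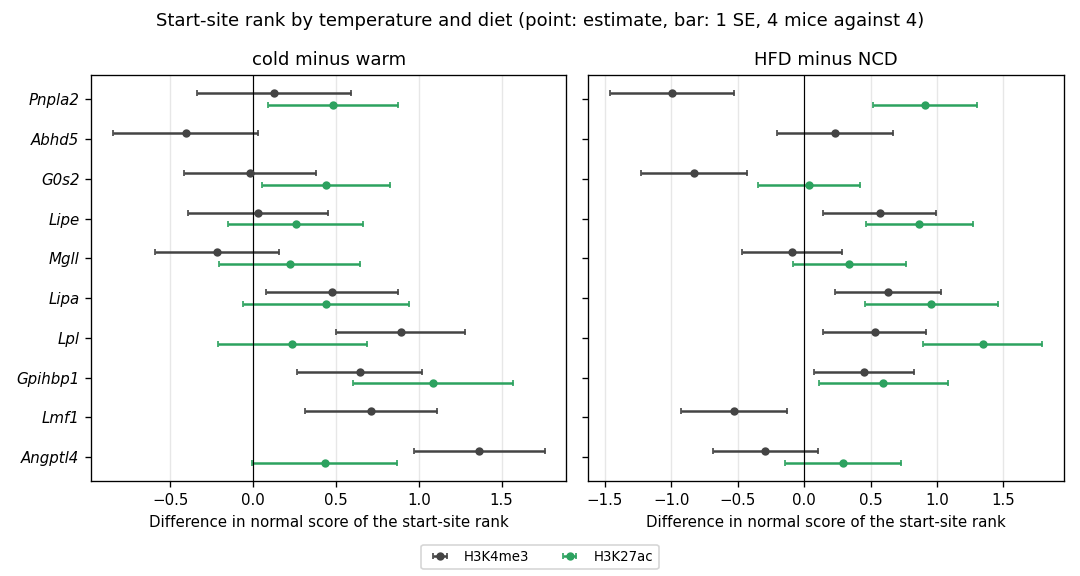
Difference in the normal score of the start-site rank (x axis) for cold minus warm and HFD minus NCD, with the limma estimate as a point and 1 SE as a bar, 4 against 4 mice. Abhd5 and Lmf1 have no H3K27ac estimate because they lacked a peak in mouse 7, and the largest estimate is that of Angptl4 H3K4me3 for temperature, 1.37.

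Beyond the start sites, H3K27ac was merged over the 8 mice into regions with no base within 1000 bp of any annotated start. A merged stretch was left out for all mice where a peak of any mouse joined it to a start. The 10 windows held 90 of 32822 such distal regions. Of the 90, 57 lay in introns, 17 touched an exon and 16 were intergenic. Regions found in 4 or more mice made up 27.8% of the 90 and 30.9% of all, and those found in 8 mice 2.22% and 3.06%. An H3K4me1 peak of any mouse overlapped 47.8% of the 90 and 46.2% of all. In 33 of the 90 it was a peak of the same mouse.

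The regions were unevenly spread. Mgll, a gene of 103949 bp, had 45, Lpl 14, G0s2 7, Abhd5 and Lipa 6 each, Lipe and Angptl4 4 each, Gpihbp1 3, Pnpla2 1 and Lmf1, of 83742 bp, none. In the plot of distal peaks per window, Mgll had 16, 19, 42, 24, 1, 23, 23 and 32 peaks in the lists of mice 1, 2, 4, 5, 7, 8, 10 and 11, and Lpl 2, 6, 14, 9, 1, 13, 5 and 19. The lowest counts of both genes were in mouse 7, which had the shortest H3K27ac list. Merging hid some distal peaks. At Lipa, a peak of mouse 11 (chr19:34513757-34527717) reached the start. Every mouse had at least 1 distal Lipa peak in its own list, but no Lipa region was found in more than 4 mice. Pnpla2 had 1 region, found in mouse 11, but 2, 1, 1, 3 and 2 distal peaks in the own lists of mice 1, 4, 8, 10 and 11.

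**Figure D3:**
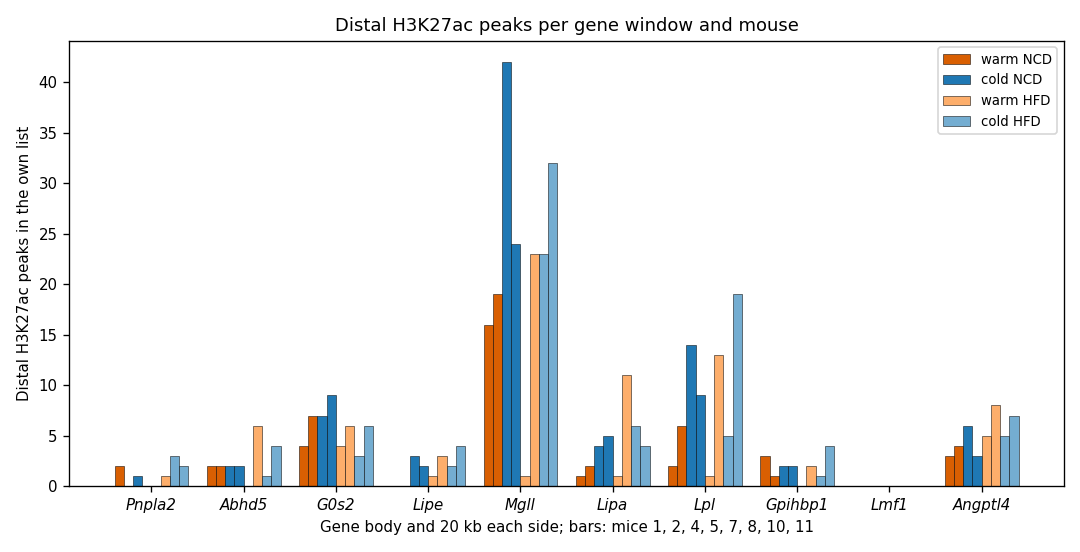
Number of distal H3K27ac peaks (y axis) over each gene body and 20 kb each side, with 1 bar per mouse in the order 1, 2, 4, 5, 7, 8, 10 and 11 and colour for the condition. Mgll has up to 42 peaks in 1 mouse and Lmf1 none in any, and mouse 7, with the shortest list, has 1 at Mgll.

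The 2 merged distal regions found in 8 mice were near Lpl and Angptl4. Of each, 300 bases are shown, with those of the Abhd5 region, which held 3 AGGTCA matches (capitals). Each window is centred on the median of all peak summits in its region, where a mouse can give several, as were all distal windows searched. Distances from a start use the median of the strongest summit of each mouse, which lies outside the printed window for the Angptl4 and Abhd5 regions. The Lpl region (chr8:68864644-68868106) is intergenic, with its median summit at -14273 bp (upstream) from the Lpl start, and the Lpl window holds no other annotated gene. The Angptl4 region (chr17:33753168-33758303) is in an intron of Rab11b, 25310 bp downstream of the Angptl4 start. The Abhd5 region (chr9:122356059-122358673) is in an Abhd5 intron and was found in 6 mice. The windows shown are chr8:68866059-68866358, chr17:33755963-33756262 and chr9:122357590-122357889, plus strand of GRCm38.
Lpl distal region: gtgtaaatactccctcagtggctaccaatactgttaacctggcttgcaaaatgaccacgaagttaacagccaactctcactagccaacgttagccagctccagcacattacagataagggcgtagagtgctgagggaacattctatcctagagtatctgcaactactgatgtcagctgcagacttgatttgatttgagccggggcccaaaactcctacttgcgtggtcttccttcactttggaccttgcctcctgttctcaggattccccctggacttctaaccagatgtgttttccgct
Angptl4 distal region: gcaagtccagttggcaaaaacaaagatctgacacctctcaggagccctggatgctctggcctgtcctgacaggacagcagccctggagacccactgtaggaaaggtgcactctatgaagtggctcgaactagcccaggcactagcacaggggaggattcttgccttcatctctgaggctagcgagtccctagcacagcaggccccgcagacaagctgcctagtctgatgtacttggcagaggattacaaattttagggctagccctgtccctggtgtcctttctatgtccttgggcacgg
Abhd5 distal region: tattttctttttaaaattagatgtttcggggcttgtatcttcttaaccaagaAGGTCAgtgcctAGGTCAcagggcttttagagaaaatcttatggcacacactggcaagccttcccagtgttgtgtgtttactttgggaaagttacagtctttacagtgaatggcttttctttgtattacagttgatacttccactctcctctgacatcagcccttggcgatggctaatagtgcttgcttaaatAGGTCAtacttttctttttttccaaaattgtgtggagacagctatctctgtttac

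The Lpl and Angptl4 windows held none of the 7 motifs. AGGTCA was in 3 of the 9 distal windows searched, 1 for each gene with a distal region, and in 24.5% of all 32783 distal windows. CACGTG was in 1 of 9 (4.03% of all) and TATAAA in 1 of 9 (14.0%). GGGCGG (4.66%), the PPAR:RXR repeat (0.933%), TGACGTCA (0.244%) and TTGCGCAA (0.0397%) were in none.

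The Lpl region had fold enrichments of 7.32, 11.2, 11.6, 6.94, 5.29, 5.30, 5.09 and 6.06 in mice 1, 2, 4, 5, 7, 8, 10 and 11. As was noticed after the values were seen, the 4 NCD mice had higher folds than the 4 HFD mice. The share of all distal regions with such a split was not computed. The highest fold of any peak was 56.8, 48.5, 76.0 and 47.3 in the H3K27ac lists of NCD mice 1, 2, 4 and 5. It was 18.8, 34.3, 33.2 and 53.6 in those of HFD mice 7, 8, 10 and 11. The own-list percentiles of the Lpl region overlapped: 72.4, 81.2, 89.9 and 60.9 on NCD and 31.0, 73.5, 49.9 and 79.5 on HFD. H3K4me1 overlapped this region in mice 2, 4, 5 and 8, and H3K4me3 in none. The Angptl4 region had folds of 10.4, 14.3, 23.5, 14.8, 9.87, 10.7, 11.7 and 12.5 and percentiles of 89.1 to 99.1, with H3K4me1 in 5 mice and H3K4me3 also in 5.

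Mgll had 4 distal regions in 7 mice, each missing only in mouse 7. The strongest by median percentile (80.8) was intronic, 34144 bp downstream of the nearest start (chr6:88754360-88762395), and carried H3K4me1 in 6 mice. Another intronic region (chr6:88746424-88748259) had a median percentile of 79.0, and a region at -6666 bp (upstream) that touched an exon of Gm26588 (chr6:88714951-88719544) had 76.1. The G0s2 window had 1 region in 7 mice, in an intron shared by Hsd11b1 and Lamb3 (chr1:193250706-193253016, median percentile 71.1). The Lipe region found most often was in 4 mice (5, 8, 10 and 11), over an exon of Cxcl17. The locus maps show the peaks spread through the Mgll introns and the compact block at Lipe.

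**Figure D4:**
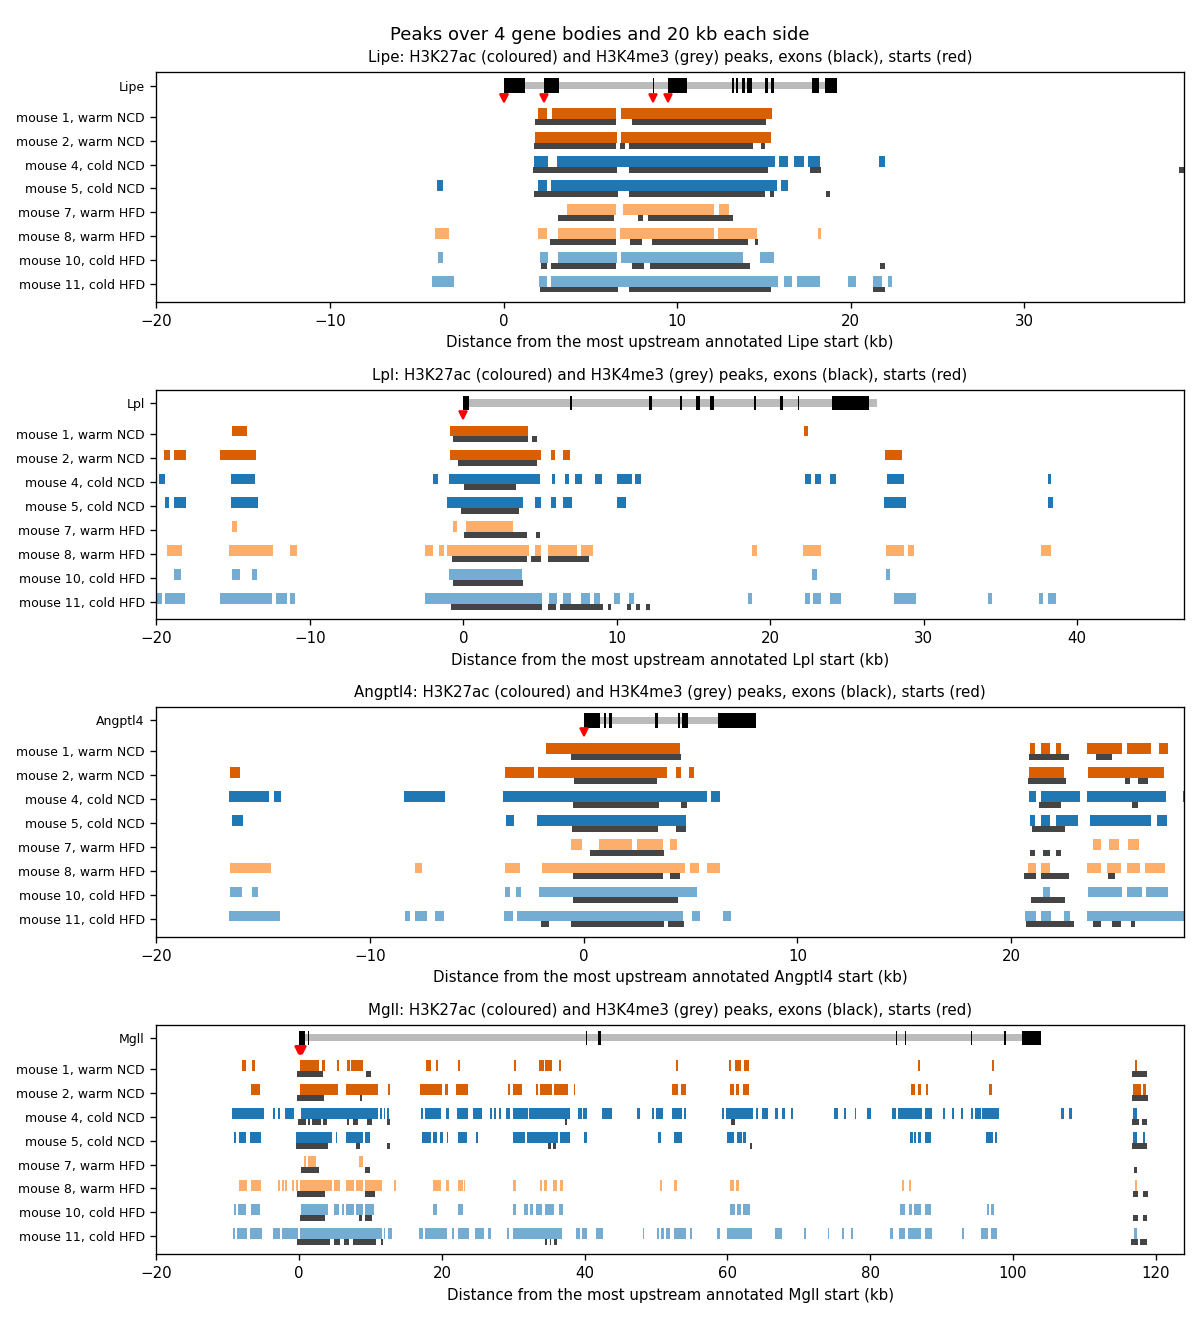
H3K27ac peaks (coloured by condition) and H3K4me3 peaks (grey) of 8 mice over Lipe, Lpl, Angptl4 and Mgll and 20 kb each side, by distance in kb from the most upstream annotated start (x axis), with exons in black and annotated starts as red arrowheads. The upstream Lpl region is present in every mouse, and the Lipe peaks cover the downstream starts and not the most upstream one.

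No distal region of the 10 genes was present in all 4 mice of a group and none of the other, which 0.399% of all distal regions were for temperature and 0.0914% for diet. Counted after the values were seen, 6 of the 90 (6.67%) were found in at least 3 cold mice and no warm mouse, against 2.97% of all, and none in at least 3 warm mice and no cold mouse. They lay near Mgll (2), Lpl, Lipe, G0s2 and Gpihbp1. All 6 were in mice 4, 5 and 11 and missing in cold mouse 10. The count was 0 without mouse 5 or 11, 1 without mouse 4 and 12 without mouse 8, and with lists of equal length it was 0. The 2.97% belongs to the full lists of all 8 mice, and the shares at these other settings are not given here. Cold lists had 14511 to 40604 H3K27ac peaks and warm lists 3224 to 33798, and the part of list length in this count was not tested.

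The other genes of these pathways, from lists chosen by name, were read the same way. Of 10 further genes of intracellular lipolysis, 9 had start-site H3K4me3 in 8 mice and 3 had H3K27ac: Plin1, which coats the fat droplet, Ces1d, a lipid hydrolase, and Aqp7, a glycerol channel. Of 10 further genes of vascular lipolysis, 4 had H3K4me3 in 8 mice and Angptl8 had H3K27ac in 8. Hepatic lipase (Lipc), Apoc2 and Apoa5 had neither mark in any mouse. Endothelial lipase (Lipg) had H3K4me3 in 8 mice and H3K27ac in none. Of 5 lysosomal genes, 4 had H3K4me3 in 8 mice, and Mcoln1, a lysosomal channel, had H3K27ac in 8. None of 5 digestive lipases and cofactors (Pnlip, Lipf, Cel, Clps and Pla2g1b) had a start-site peak of any mark.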

How the data were processed

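The deposited values came from ChIP-seq of 4 marks in 8 mice, with the 8 inputs used only through the authors' peak calls. The authors trimmed reads with cutadapt, aligned them to GRCm38 with Bowtie2 and called peaks with MACS2 against the own input of each mouse, and the submitters' processing notes also name deepTools. Neither tool versions nor a stated threshold for peaks could be taken from the sources used here. The lowest −log10 q of a peak in any list was 1.30 (H3K27ac, mouse 11). Each deposited list gives a fold enrichment and −log10 p and q values per peak, as the authors' caller wrote them. Read depth is unknown, so no counting interval is given. The methods can be read as tissue of 2 mice per experiment, and each list carries 1 mouse number, so p-values measure the spread between these lists.

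Peaks were ranked within their own list by −log10 p. Start-site ranks among protein-coding genes with a peak in all 8 mice were turned into normal scores (ties averaged) and fitted with limma 3.58.1 (R 4.3.3) on temperature and diet, with Benjamini-Hochberg adjustment over all genes fitted, after the fit was tested on simulated data. Presence was tested by Fisher's exact test (scipy 1.17.1, pandas 2.3.3). Distal regions are unions of H3K27ac peaks overlapping by at least 1 bp. The 10 genes were named whatever their values, and other pathway genes where H3K27ac was present in 8 mice or in 0, except 1 that is not reported here. Members and lists were chosen with earlier results of these data known. The alternatives were another peak measure, window, threshold, list length or set of mice.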

Additional observations from a re-analysis of the deposited data

Results flagged for a closer look

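Start-site percentiles and widths were compared within each temperature and diet group of 4 mice by Dixon's criterion. It singled out 19 of 152 groups, where chance gives about 1 in 20, or 7.6, and a mouse counts in both a temperature and a diet group.

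Mouse 7, with the shortest lists, was the low value in most. For H3K4me3 its Pnpla2 percentile was 44.5 (other warm mice 97.0 to 99.1) and its Gpihbp1 width 802 bp (2158 to 2418). For H3K27ac its percentile was 86.0 for Pnpla2 (other warm mice 97.2 to 99.1, other HFD mice 99.1 to 99.8), 40.6 for Mgll (other warm mice 89.1 to 95.6), 10.5 for Lipa (other warm mice 84.6 to 92.0, other HFD mice 88.5 to 99.6) and 86.3 for Angptl4 (other HFD mice 99.5 to 99.8). Its Angptl4 H3K27ac width was 1561 bp (other warm mice 6036 to 6716, other HFD mice 6716 to 7747).

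Mouse 4 had H3K27ac percentiles of 0.507 for Abhd5 (other NCD mice 81.2 to 89.5), 41.7 for Lipa (84.6 to 91.7) and 6.82 for Lmf1 (77.5 to 91.7). Mouse 1 had an Lpl H3K4me3 percentile of 87.5 (other NCD mice 96.8 to 97.3), an Angptl4 H3K4me3 width of 5155 bp (3849 to 4050) and a Lipa H3K27ac width of 1403 bp (2714 to 2913). Mouse 10 had a G0s2 H3K27ac percentile of 98.1 (other cold mice 99.5 to 99.8) and a Lipe width of 7008 bp (12546 to 13051). Mouse 11 had a Lipa H3K27ac width of 13961 bp (other cold mice 2358 to 2870).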

How the results depend on the processing

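No paired analysis was possible because the temperature and diet groups share no mouse numbers. The genes with start-site H3K27ac in every mouse numbered 5 at a −log10 q of at least 5, 5 at equal list length and 4 with the summit in the window (8 to 10 leaving out 1 mouse). Distal regions in the windows numbered 49 at the stricter q, 9 at equal length and 30 at equal length without mouse 7 (84 to 92 leaving out 1). Of these, 1, 0 and 5 were in every mouse, and 1 at 2500 bp from starts, 0 with 10 kb and 5 with 50 kb windows (2 to 7, with 7 without mouse 7). At equal length without mouse 7, 1 distal region split by temperature and 2 by diet. Leaving out 1 mouse, 0 to 6 split by temperature (6 without mouse 10), and 0 to 1 of the start-site H3K4me1 peaks by diet. Regions in at least 3 cold and no warm mice numbered 0 at equal length, 2 without mouse 7 as well, and 0 to 12 leaving out 1. For the counts of this paragraph, the shares of all genes or regions at the same settings are not given here.

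Genes with ranks that did not overlap, a count added after seeing the data, were recounted at other settings. For H3K4me3 and temperature there were 0 with fold or log2 fold and 2 without mice 7 and 10 (1 to 2 leaving out 1). For diet there was 1 with log2 fold and 1 without mice 7 and 10 (0 to 2). Without mice 7 and 10, 6.1% of all 12580 genes were higher in cold and 4.79% lower, and 8.76% and 11.2% on HFD. Leaving out 1 mouse, 3.14% to 5.11% were higher in cold and 1.89% to 3.41% lower. On HFD 3.28% to 5.27% were higher and 3.03% to 5.81% lower. With log2 fold, 2.06% were higher and 1.27% lower on HFD. For H3K27ac and diet there were 0 with fold, 2 with missing peaks ranked lowest and 0 with log2 fold. Without mice 7 and 10 there were 2 (1 to 2 leaving out 1). In a 500 bp window it was 0 of 6 tested genes, and Pnpla2 was not tested there, having no such peak in mouse 7. For temperature there were 2 without mice 7 and 10 (0 to 2). Of all 5773 genes without mice 7 and 10, 5.46% were higher and 5.34% lower in cold, and 7.69% and 8.09% on HFD. Leaving out 1 mouse, 1.18% to 4.14% were higher in cold and 2.44% to 3.65% lower. On HFD it was 3.64% to 8.65% and 2.68% to 5.6%. By limma, the genes past the threshold for H3K4me3 and diet fell from 6 to 0 with fold, missing lowest, log2 fold, or without mice 7 and 10 (0 to 232 leaving out 1, 232 without mouse 8), and for temperature ranged from 0 to 64 (64 without mouse 8). For H3K27ac and diet they were 17 with missing lowest and 1 at 500 bp (0 to 1). Of the 10 genes, 0 to 1 passed for H3K4me3 and diet, Pnpla2 without mouse 8. The cause was not tested. List length, which depth can set, limits every statement on absence.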
